A study of Homo sapiens with 6 samples.

Results

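The genes described here are 10 human immediate early genes and their regulator: EGR1, EGR2 and EGR3, NR4A1, NR4A2 and NR4A3, IER2, IER3 and IER5, and SRF. They were chosen by symbol, taking every probe set of the array that the platform annotation pairs with one of them. This gave 18 of 54613 probe sets, for 9 of the 10 genes, and EGR2 was not analysed here. RNA of MM1.S cells, an established line grown from a patient's multiple myeloma, was read on 6 single-channel Affymetrix arrays. The control group was 3 arrays of cells infected with a lentivirus carrying a control shRNA (titled pKLO GFP control), and the knockdown group was 3 arrays of cells infected with a pKLO beta-catenin shRNA virus. Both groups had thus been infected, sorted for GFP and grown as triplicate cultures. The sample titles call the arrays biological replicates. The labels name no further treatment, time after infection, hairpin sequence or separate infections. The p-values thus measure the spread between these cultures, which may still be technical if they share an infection. In such bulk RNA, fewer cells that express a gene and less RNA per cell cannot be told apart. Part of the labels speaks of embryos, which contradicts the named cell line and was not used.

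Immediate early genes are switched on within minutes of a signal, without new protein being made. Growth factors and stress act on them through MAP kinases and the transcription factor SRF, which binds the CArG box together with ETS-type partners such as ELK1, while cyclic AMP acts through CREB at the cyclic AMP response element. EGR proteins are zinc finger transcription factors of GC-rich sites, and NR4A proteins are nuclear receptors that act without a known natural ligand. IER2 and IER5 belong to one protein family, of which IER5 is known as a partner of the heat shock factor HSF1, while IER3 is known for its role in cell survival.

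The array values do not show the sequences these signals act through, so the promoter letters of 4 called or regulating members and of IER2, which was not called, are printed for reference. They are RefSeq sequences of build GRCh38.p14, each the 150 bases before a start site, 5′ to 3′ on the gene's strand. Of the 10 genes, 7 were in the promoter table, with 11 start sites. Capitals mark every match, on either strand, to a CArG box, to the cyclic AMP response element TGACGTCA or its core TGACG, to the ETS core CCGGAA, to the EGR site GCGNGGGCG, to the NR4A element AAAGGTCA, to the AP-1 site TGANTCA or to the heat shock core GAANNTTC. The core lies inside the full element, so matches to the full one count for both.
EGR1 at chr5:138465329-138465478, plus strand: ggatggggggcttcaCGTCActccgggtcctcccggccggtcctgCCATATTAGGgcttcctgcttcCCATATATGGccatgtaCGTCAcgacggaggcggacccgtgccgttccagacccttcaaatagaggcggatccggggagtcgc
NR4A3 at chr9:99821735-99821884, plus strand: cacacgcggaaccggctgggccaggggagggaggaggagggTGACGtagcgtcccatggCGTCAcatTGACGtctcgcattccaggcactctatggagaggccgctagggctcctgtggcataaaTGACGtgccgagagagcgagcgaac
IER5 at chr1:181088550-181088699, plus strand: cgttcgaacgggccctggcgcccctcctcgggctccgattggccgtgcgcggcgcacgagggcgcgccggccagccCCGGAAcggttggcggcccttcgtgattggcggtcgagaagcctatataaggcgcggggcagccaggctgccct
SRF at chr6:43171119-43171268, plus strand: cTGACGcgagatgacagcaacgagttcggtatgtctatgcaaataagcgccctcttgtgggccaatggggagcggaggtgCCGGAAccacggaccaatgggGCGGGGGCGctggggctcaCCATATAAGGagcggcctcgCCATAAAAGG
IER2 at chr19:13150261-13150410, plus strand: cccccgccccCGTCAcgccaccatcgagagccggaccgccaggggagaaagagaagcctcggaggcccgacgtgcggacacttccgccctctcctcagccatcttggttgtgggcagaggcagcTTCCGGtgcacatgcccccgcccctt

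EGR1 had 2 CArG boxes, at 105 to 96 and at 83 to 74 bases before the start, and SRF had 2, at 30 to 21 and at 10 to 1. Of 35116 promoters of the table, 407 (1.16%) held a CArG box in the 250 bases before the start, and 11 held at least 2. EGR2, which has no measured level here, had 1 CArG box and 2 cores of the cyclic AMP response element at the last of its 3 listed starts. At their first listed starts NR4A3 had 4 cores of the cyclic AMP response element, EGR1 had 2, and SRF and IER2 had 1 each in that window, where 21.2% of all promoters held at least 1. No full TGACGTCA element was found in the 11 member promoters (1.65% of all promoters held one). IER5 had neither a CArG box nor a core of the cyclic AMP response element in its window. It had 1 ETS core, as 14.5% of all promoters did, and 1 heat shock core at 226 to 219 bases before the start, outside the printed letters (5.78% of all promoters). SRF, IER2 and NR4A1 also had 1 ETS core each at their first listed starts. An EGR site stood in the EGR1 and SRF windows (8.41% of all promoters). That of EGR1 lay at 198 to 190 bases before the start, outside the printed letters. No NR4A element or AP-1 site was found in any member promoter (1.05% and 6.57% of all promoters). These matches describe the letters and not binding.

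**Figure D1:**
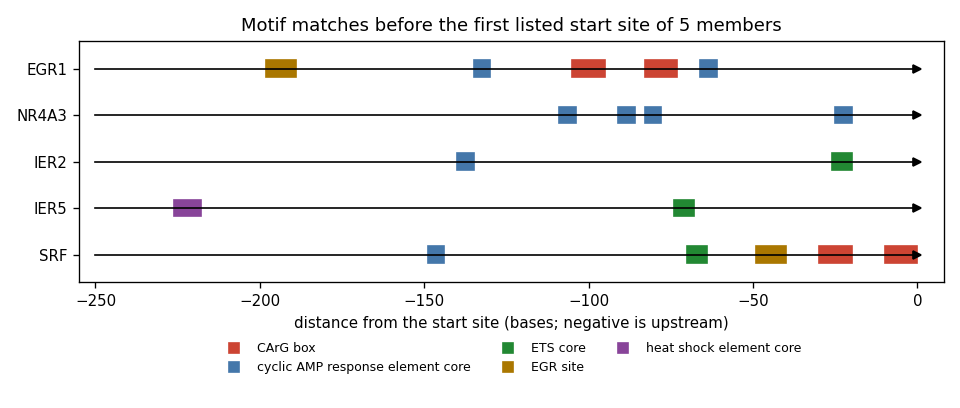
Positions of motif matches in the 250 bases before the first listed start site of 5 members, on either strand; the horizontal axis is the distance in bases from the start site, which the arrowhead marks, and each coloured box is 1 match. EGR1 and SRF carry 2 CArG boxes each, NR4A3 carries 4 cores of the cyclic AMP response element, and IER5 carries neither.

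The deposited values are log2 levels with a lowest value of 4, the form of log2(signal + 16), so changes of dim probe sets are understated. Array medians were 5.44 to 5.50 in control and 5.50 to 5.54 in knockdown arrays. The targeted gene CTNNB1, which encodes beta-catenin, was lower in the knockdown on the brightest of its 3 probe sets (−1.33 on the log2 scale, SE 0.10; limma, adjusted p = 2.27e-07), while a dimmer one was higher by 0.33 (limma, adjusted p = 0.0390) and the last differed by −0.07. The labelled cell type was checked by its markers: all 10 plasma cell and myeloma markers, SDC1, IRF4 and XBP1 among them, were above the filter on dim genes. Of 33 measured markers of 6 other cell types, 16 were below that filter. Among the 17 tested, 2 were higher and 1 lower: CSF1R by 0.31, HBB by 0.24 (0.13 as the average of its probe sets) and THY1 by −0.45 (−0.07 as the average of its probe sets). In the fit over all probe sets CSF1R and HBB were not called, and the HBB groups overlapped. The summed signal of the 33 markers was 1834 to 1938 in control and 1922 to 2028 in knockdown arrays, and none lay at the lowest level on all arrays. HBB, a haemoglobin gene, was the brightest of them (8.86 in control, 9.11 in knockdown). The part of other cells in the results was not tested.

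Among the immediate early genes, the arrays showed rises in EGR1, NR4A2 and IER5, a rise on 1 of 3 probe sets each in NR4A1 and NR4A3, no called change in EGR3, IER2 and IER3, and a lower level of SRF that was called in 1 of 2 fits. Of the 18 probe sets, 8 were called higher, 0 lower and 10 were not called (limma over all 54613 probe sets, two-sided, Benjamini-Hochberg adjusted p under 0.05). At an unadjusted p under 0.05, 1 was lower, and that one (SRF) was called after each of 3 other scalings, which gave 7 or 8 higher and 1 lower. Over all probe sets 23.2% were called, 13.3% higher and 9.95% lower. The median change of the 18 was 0.25, against 0.04 over all probe sets. The groups did not overlap for 9 members in the higher direction and 1 in the lower, where 22.0% and 15.1% of all probe sets were of these kinds. Dim probe sets are included in these counts: 9 of the 18 had a mean at or above the median of all probe set means.

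**Figure D2:**
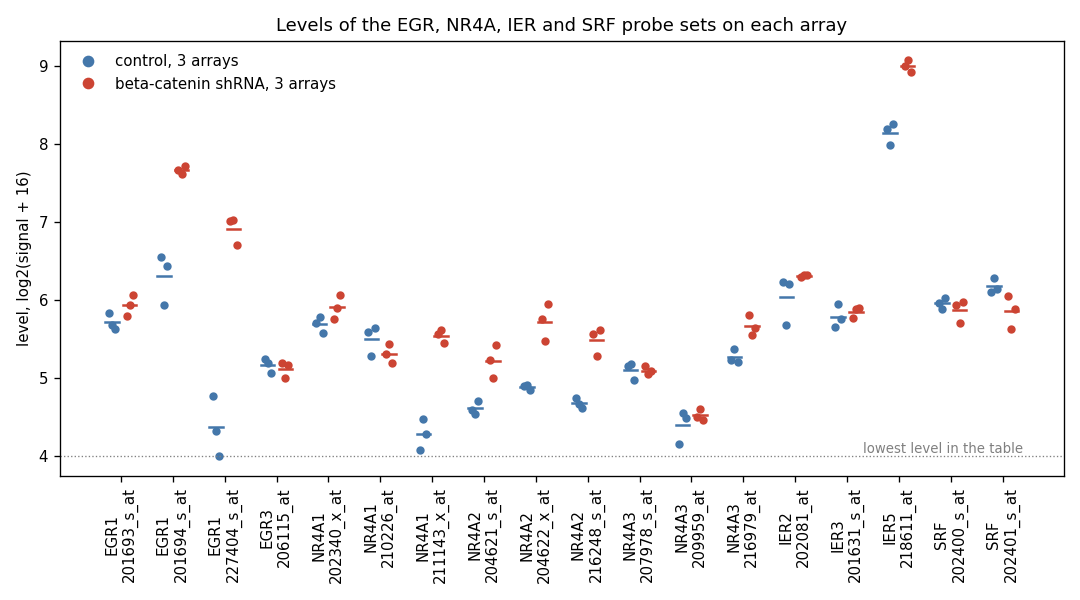
Level of each member probe set on each array, as log2(signal + 16) on the vertical axis; blue points are the 3 control arrays, red points the 3 beta-catenin shRNA arrays, and the short lines are group means. EGR1 on 201694_s_at and 227404_s_at, NR4A1 on 211143_x_at, the 3 NR4A2 probe sets, NR4A3 on 216979_at and IER5 have all red points above all blue ones and were called; IER2 also does, by a small gap, and was not called.

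EGR1, a zinc finger factor switched on by growth factors and stress, showed the largest change of the members. On 201694_s_at, its brightest probe set, the controls read 6.55, 5.94 and 6.44 and the knockdown arrays 7.66, 7.62 and 7.71. All 3 knockdown arrays lay above all 3 controls, by more than 1 on the log2 scale. The means were 6.31 ± 0.32 and 7.66 ± 0.05 (SD, n = 3 each), a rise of 1.36 (SE 0.14), or 2.56-fold (limma, adjusted p = 5.11e-06). Without control replicate 2, the lowest array, the rise was 1.17. On 227404_s_at the controls read 4.77, 4.32 and 4.0005, the last at the lowest level of the table, and the knockdown arrays 7.01, 7.03 and 6.70. The signal was thus near the bottom of the range in the controls, brighter than only 6.64% of probe sets, and brighter than 82.8% of them in the knockdown. The rise was 2.55 (SE 0.17), or 5.85-fold with the offset of 16 (limma, adjusted p = 9.84e-08); it was 4.74 with an offset of 1 and 1.29 with an offset of 64, and called in both.

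The third EGR1 probe set did not show a rise of that size. On 201693_s_at the controls read 5.84, 5.68 and 5.62 and the knockdown arrays 5.80, 5.93 and 6.07, so the groups overlapped. The difference was 0.22 (95% interval −0.03 to 0.47; limma, adjusted p = 0.206). The changes of the 3 EGR1 probe sets thus spanned 2.33 on the log2 scale, and their average per array rose by 1.38. EGR3, a relative of EGR1 that recognises the same kind of site, was read by 1 probe set, 206115_at, at 5.25, 5.19 and 5.06 in control and 5.19, 5.00 and 5.16 in knockdown arrays. The groups overlapped and the difference was −0.05 (95% interval −0.30 to 0.21; limma, adjusted p = 0.835). The interval of EGR3 lies below the 2 called changes of EGR1, but the difference between the genes was not tested.

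NR4A2, a nuclear receptor also called NURR1, rose on 3 of 3 probe sets. On 204622_x_at the controls read 4.90, 4.91 and 4.85 and the knockdown arrays 5.75, 5.47 and 5.94. The knockdown arrays were all above the controls and lay further apart from each other. The rise was 0.84 (SE 0.13), or 1.78-fold (limma, adjusted p = 0.000298). The remaining probe sets of the gene rose by 0.81 (216248_s_at; limma, adjusted p = 0.00026) and by 0.61 (204621_s_at; limma, adjusted p = 0.00401). On each of the 3 the groups did not overlap, and knockdown replicate 2 was the lowest knockdown array. All 3 were dim in the controls, brighter than 14.9% to 26.2% of probe sets, so the sizes depend on the offset. With an offset of 1 the rises were 1.37, 1.504 and 1.23 in the order given, and with an offset of 64 they were 0.38, 0.34 and 0.24, all called. Without moderation of the variance 204621_s_at was no longer called (adjusted p = 0.0649), nor was it against a 1.2-fold null (limma, adjusted p = 0.104).

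NR4A1, also called NUR77, a receptor tied to cell death in lymphocytes, gave a different answer on each of its probe sets. On 211143_x_at the controls read 4.08, 4.48 and 4.28 and the knockdown arrays 5.56, 5.62 and 5.44. The groups were apart by about 1 on the log2 scale, and the rise was 1.26 (SE 0.13), or 2.40-fold with the offset of 16 (limma, adjusted p = 7.15e-06). These controls lay near the lowest level of the table, brighter than only 4.24% of probe sets, so the size depends on the offset: it was 2.998 with an offset of 1 and 0.49 with an offset of 64, and called in both. The brightest NR4A1 probe set, 202340_x_at, read 5.71, 5.78 and 5.58 in control and 5.76, 5.90 and 6.06 in knockdown arrays, with overlapping groups. Its difference was 0.22 (95% interval −0.03 to 0.47; limma, adjusted p = 0.216). The probe set without an _x_ mark, 210226_at, was on average lower in the knockdown: it read 5.59, 5.28 and 5.64 in control and 5.31, 5.43 and 5.18 in knockdown arrays, a difference of −0.19 (95% interval −0.47 to 0.08; limma, adjusted p = 0.332). The _x_ mark says that some probes of the set can also match other transcripts. The brightest NR4A2 probe set, 204622_x_at, carries this mark too. The average of the 3 NR4A1 probe sets rose by 0.43 (limma, adjusted p = 0.00155).

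NR4A3, or NOR1, was called on 1 of 3 probe sets. On 216979_at the controls read 5.22, 5.38 and 5.20 and the knockdown arrays 5.80, 5.55 and 5.63. The groups did not overlap. The rise was 0.40 (SE 0.12), or 1.32-fold (limma, adjusted p = 0.0246). This call was lost without control replicate 1 (adjusted p = 0.0676), control replicate 3 (0.0704), knockdown replicate 1 (0.127) or knockdown replicate 3 (0.0528), after quantile normalization (0.0503) or without moderation of the variance (0.0764). It was also lost against a 1.2-fold null (limma, adjusted p = 0.727). The other NR4A3 probe sets overlapped between the groups. On 207978_s_at the difference was −0.01 (95% interval −0.26 to 0.24; limma, adjusted p = 0.967), and on 209959_at, which lay between 4.15 and 4.60 on all arrays, it was 0.12 (95% interval −0.18 to 0.42; limma, adjusted p = 0.602). The average of the 3 differed by 0.17 (limma, adjusted p = 0.205).

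IER5 was the brightest member and rose on its only probe set. On 218611_at the controls read 8.19, 7.99 and 8.26 and the knockdown arrays 9.00, 9.07 and 8.92. Every knockdown array was above every control, and both groups were tight. The means were 8.15 ± 0.14 and 9.00 ± 0.08 (SD, n = 3 each), a rise of 0.85 (SE 0.09), or 1.81-fold (limma, adjusted p = 5.74e-06). The probe set is bright enough for the offset to matter little: the rise was 0.89 with an offset of 1 and 0.76 with an offset of 64.

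IER2, a short-lived nuclear protein, read 6.23, 5.68 and 6.21 in control and 6.30, 6.32 and 6.31 in knockdown arrays on 202081_at. The knockdown arrays were nearly equal and above the controls, 2 of which lay close below them. The difference of 0.27 (95% interval −0.03 to 0.57; limma, adjusted p = 0.192) moved with control replicate 2, the lowest array: it was 0.09 without that array (limma, adjusted p = 0.620). IER3, also called IEX-1, which acts in cell survival, read 5.65, 5.95 and 5.76 in control and 5.76, 5.88 and 5.90 in knockdown arrays on 201631_s_at. These overlapped, with a difference of 0.06 (95% interval −0.19 to 0.31; limma, adjusted p = 0.767). The intervals of IER2 and IER3 do not reach the rise of IER5, but that difference was not tested.

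SRF, the transcription factor that drives many immediate early promoters, was on average lower in the knockdown on both of its probe sets. On 202401_s_at the controls read 6.10, 6.28 and 6.14 and the knockdown arrays 6.05, 5.62 and 5.88. The groups did not overlap, with a gap of less than 0.1 between the nearest arrays. The difference was −0.32 (SE 0.12; 95% interval −0.59 to −0.06) and was not called over all probe sets (limma, adjusted p = 0.0809). It was called in the fit with 1 probe set per gene (limma, adjusted p = 0.0287), though not there without control replicate 2 (−0.27, adjusted p = 0.0930) or knockdown replicate 2 (−0.21, 0.220), nor as the average of both probe sets (−0.21, 0.0877), with array quality weights (−0.25, 0.0755), without moderation of the variance (0.150), against a 1.2-fold null (0.778) or without the filter (0.0511). It was also called, over all probe sets, after quantile normalization (−0.39, adjusted p = 0.0405), centring on array medians (−0.38, 0.0311) and cyclic loess (−0.39, 0.0287). On 202400_s_at the control levels of 5.97, 5.89 and 6.02 overlapped with the knockdown levels of 5.93, 5.70 and 5.98, and the difference was −0.09 (limma, adjusted p = 0.651). Knockdown replicate 2 was the lowest array on both SRF probe sets.

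**Figure D3:**
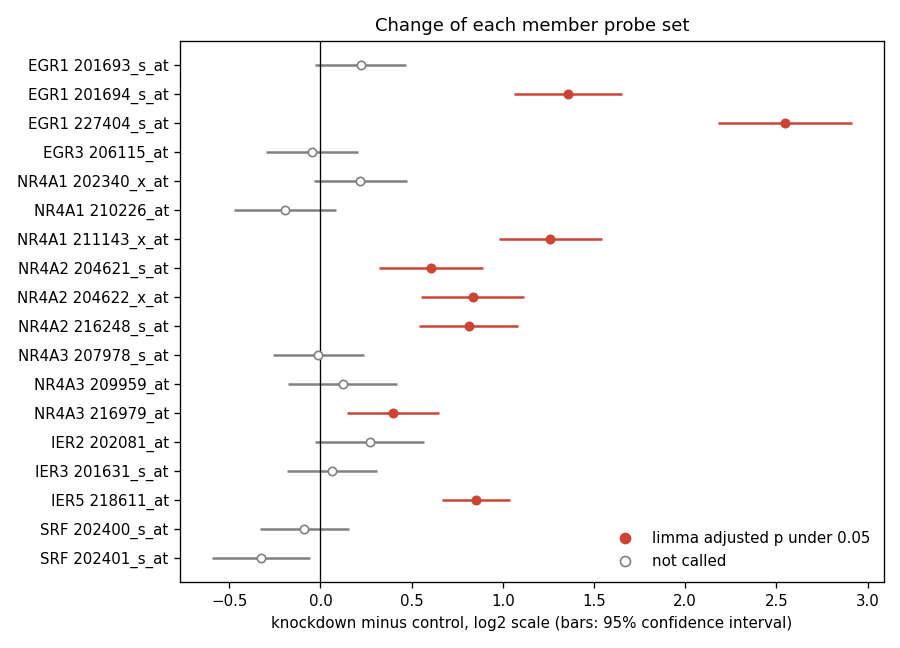
Change of each member probe set, knockdown minus control on the log2 scale (horizontal axis); points are the fitted differences, bars their 95% confidence intervals, filled red points were called by limma and open grey points were not. The 8 called changes run from 0.40 for NR4A3 to 2.55 for EGR1, and probe sets of EGR1, NR4A1 and NR4A3 differ among themselves.

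In the fit with 1 probe set per gene, the brightest, and a filter at the median level, 6 of the 9 genes could be tested. EGR1 and IER5 were called higher and SRF lower, where 47.3% of 12939 genes were called, 25.3% higher and 22.0% lower. NR4A2, NR4A3 and EGR3 fell below the filter with means of 5.30, 5.46 and 5.14 against a limit of 5.49, and NR4A1 was represented by the probe set that was not called. This fit therefore leaves out the NR4A rises described above.

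The genes around the members were described from 8 lists of partners, upstream kinases and targets, in the fit in which 25.3% of all genes were called higher and 22.0% lower. The lists were chosen with earlier results of these data known, so their counts describe the lists and are not independent evidence. Of 45 other immediate early genes, 37 could be tested: 31 rose, 1 fell and 5 were not called, and the median change was 1.54 against 0.05 over all genes tested. DUSP1, a phosphatase of MAP kinases, rose from 6.41 to 10.88 (limma, adjusted p = 1.64e-25), the chemokine CCL4 from 5.89 to 10.37 (limma, adjusted p = 3.20e-25) and the stress factor ATF3 from 6.76 to 10.70 (limma, adjusted p = 5.16e-25). FOS, an AP-1 subunit, lay at the lowest level of the table in the controls (mean 4.001) and at 9.27 in the knockdown (limma, adjusted p = 1.71e-25). The member of this list that fell was ID1, an inhibitor of helix-loop-helix factors, with a change of −1.19 (limma, adjusted p = 7.02e-10), named after its values were seen. As averages of their probe sets DUSP1 rose by 2.85 and ATF3 by 2.75.

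Of 7 SRF cofactors tested, 2 fell and 0 rose (limma, median difference −0.03), where 22.0% of all genes were lower and 25.3% higher. At an unadjusted p under 0.05 the counts were 3 lower and 0 higher. ELK3, an ETS-type partner of SRF, changed by −1.18 (SE 0.11; limma, adjusted p = 4.54e-10) on its brightest probe set and by −0.49 as the average of its probe sets. FHL2, a LIM-domain cofactor, changed by −1.12 (SE 0.11; limma, adjusted p = 5.53e-10). ELK1, ELK4 and the actin-sensing coactivators MRTFA and MRTFB were not called (differences of −0.29, −0.01, 0.04 and −0.03). Among 14 SRF targets of the cytoskeleton, 3 rose and 5 fell (median −0.11), beside 25.3% and 22.0% of all genes. After centring on array medians 1 rose and 7 fell, and without knockdown replicate 1 the counts were 1 higher and 4 lower. Cytoplasmic actin ACTB, the actin-severing protein CFL1 and the actin crosslinker ACTN4 fell by 0.52, 0.58 and 0.73, and the tropomyosin TPM4 rose by 0.50 (limma, largest adjusted p = 2.99e-05). CFL1 changed by −0.37 as the average of its probe sets.

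Upstream of the members, 11 genes of the ERK cascade were tested, of which 4 rose and 2 fell (median 0.22), a share called near the 47.3% of all genes. The kinases MAP2K2 and MAP2K1, which activate ERK, rose by 0.78 and 0.45, and the ribosomal S6 kinase RPS6KA2 rose by 0.63, while the GTPase HRAS fell by 0.49 (limma, largest adjusted p = 0.000567). As the average of its probe sets MAP2K2 changed by 0.44. Of 10 stress MAP kinase genes, 2 were higher and 2 lower (median 0.09), also near the 47.3% of all genes called. MAP3K5 and MAP2K5 rose by 0.69 and 0.49, and MAPK13 and MAPKAPK3 fell by 0.48 and 0.37 (limma, largest adjusted p = 0.00384).

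Among 9 genes of the CREB group, 3 were higher and 1 lower (median 0.14), again near the 47.3% of all genes called. CREM, a CREB relative with activating and repressing forms, rose by 0.91, as did the catalytic subunit gene PRKACA by 0.45 and the coactivator EP300 by 0.37, while the other catalytic subunit gene PRKACB fell by 0.92 (limma, largest adjusted p = 0.00484). The averages over probe sets were smaller for CREM (0.38), PRKACA (0.15), EP300 (0.19) and PRKACB (−0.55), and with such averages 2 of 8 tested genes of the group were called, 1 higher and 1 lower. Of the EGR partners, the corepressor NAB1, EGR4 and SP1 were tested and 0 were called (limma, smallest adjusted p = 0.0650, that of SP1, the 1 gene with an unadjusted p under 0.05, which was called after quantile normalization or cyclic loess, with array quality weights, and without control replicate 1 or knockdown replicate 3), and the corepressor NAB2 and WT1 lay below the filter. Of the retinoid X receptors that pair with NR4A1 and NR4A2, only RXRB could be tested. Its difference of −0.18 did not pass (limma, adjusted p = 0.176) and passed after quantile normalization.

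**Figure D4:**
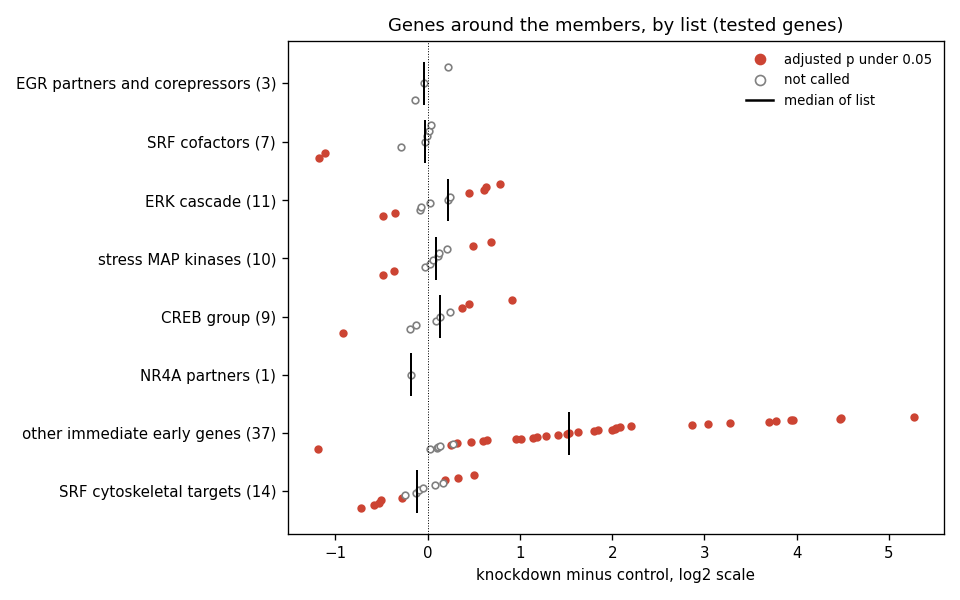
Change of each tested gene of the 8 lists, knockdown minus control on the log2 scale (horizontal axis); filled red points were called by limma in the fit with 1 probe set per gene, open points were not, the vertical bar is the list's median, and the number of genes tested stands in brackets. The other immediate early genes have a median of 1.54, and the other 7 lists have medians between −0.18 and 0.22. Some of the other immediate early genes passed the filter only through the knockdown arrays. The lists were chosen with earlier results of these data known.

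The pattern of the largest member change, EGR1 on 227404_s_at, was set beside those of 12933 other tested genes by the Euclidean distance over the 6 arrays, after centring each on its control mean. The nearest were BEX2 (distance 0.52), DDIT4 (0.55), RGS2 (0.57), YPEL5 (0.59) and SYTL1 (0.60), which rose by 2.58, 2.61, 2.72, 2.51 and 2.59. BEX2 and SYTL1, with control means of 5.45 and 4.87, passed the filter limit of 5.49 only through the knockdown arrays. The EGR1 probe set itself had a control mean of 4.36, near the lowest level of the table. Beside all these rises, the ribosomal RNA control probe sets were also higher in the knockdown, at 9.75 to 10.22 against 8.60 to 9.63 in the controls. For ACTB, the level at the 3′ end exceeded that at the 5′ end, a sign of RNA integrity, by 0.53 to 0.89 in control and 0.54 to 0.64 in knockdown arrays. The part of RNA quality or of ribosomal RNA carried into the labelling in these results was not tested.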

How the data were processed

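RNA of 3 control and 3 knockdown cultures was measured on 1-colour Affymetrix arrays. The deposited values are log2 levels per probe set; per the submitters' processing notes, MAS5 and PLIER were used, with no version or role named, and the scaling between arrays is not stated there. The values have a lowest level of 4, and the form log2(signal + 16) was read from them. No further normalization was made. Of 54675 probe sets, 62 Affymetrix controls were left out of the tests. Under the platform annotation given here, 41097 probe sets had 1 gene symbol, 1801 several and 11721 none; 41043 of the first matched a RefSeq gene table (GRCh38.p14) by gene ID and 0 symbols changed. Probe sets with several symbols named no gene, and list genes without a probe set of 1 symbol were not analysed here.

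All probe sets were fitted with limma 3.58.1 in R 4.3.3 (lmFit and trended eBayes), 54613 in all and without a filter, with Benjamini-Hochberg adjustment over that table and a threshold of 0.05. A second fit took the brightest probe set per gene, for genes with a mean at or above 5.49, the median of all probe set means. Intervals are 95% intervals of the moderated fit. An exact permutation test of 3 against 3 arrays cannot go below p = 0.1. Groups and replicate numbers came from the sample titles. Same-numbered arrays did not deviate together (r of −0.04, −0.12 and −0.22 across probe sets), so the numbers were not taken as pairs. With 3 arrays a group, precision is limited by their number. The members and lists were chosen with earlier results of these data known. The rule for named genes took all members, CTNNB1, up to 4 called genes per list by adjusted p, and the 5 genes nearest to the largest member change; genes outside it are said to be so or stand as examples of uncalled list members or cell markers. Alternatives covered scaling, replicate block, variance model, a 1.2-fold null, offsets, filters, probe set rules and leaving out each array.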

Additional observations from a re-analysis of the deposited data

Results flagged for a closer look

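The ribosomal RNA control probe sets lie outside the comparisons above and were higher in the knockdown than in the control arrays. Averaged over 6 probe sets, the control arrays gave 9.02 and the knockdown arrays 9.92, a difference of 0.90 on the log2 scale (exact permutation p = 0.1, the smallest that 3 against 3 arrays can give). With groups of 3 arrays, single arrays far from the others were not tested for.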

How the results depend on the processing

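Of the 317 alternative values of the 18 member probe sets, 295 kept direction and call, 9 lost a call, 4 gained one and 9 changed sign. With a filter on dim probe sets the count called fell from 8 to 4 of 9 at the median (3 higher, 1 lower) and to 2 of 2 at the 75th percentile, because fewer were tested. Among all probe sets passing these filters 43.9% and 60.5% were called, so at the median the member share was near that of all probe sets. Leaving out 1 array gave 7 to 8 called probe sets, 2 to 4 called genes and 53 to 59 called list genes. The replicate block gave 8, 3 and 54, against 8, 3 and 56, and changed no call of a member; the numbers do not pair the samples. Sign changes occurred only in probe sets that were not called. Over the arrays left out, EGR3 ran from −0.0995 to 0.0126. NR4A3 ran from −0.0733 to 0.0261 on 207978_s_at (0.0095 with array weights) and from −0.0029 to 0.20 on 209959_at. IER3 ran from −0.0067 to 0.14, and quantile normalization gave −0.0029 and cyclic loess −0.0049. Apart from these values, NR4A1 as 1 value per gene was −0.19 by its probe set without an _x_ mark, against 0.22 by its brightest. The cause was not tested. The median change of all probe sets was 0.04 as deposited and between −0.01 and 0.00 under other scalings. Control levels near the lowest level of the table limit what can be said of the size of the change on EGR1 227404_s_at and NR4A1 211143_x_at.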

Other observations

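The promoter letters allowed a look at all genes with a CArG box, a list defined by sequence and drawn up after the member values were seen. The members EGR1, EGR2 and SRF are on it. Of 394 genes with a match in the 250 bases before a start, 162 were tested, of which 55 (34.0%) rose and 33 (20.4%) fell in the knockdown (median change 0.12). Of all 10386 tested genes with a listed promoter, 25.3% rose and 23.1% fell (median change 0.04). Of 340 tested genes with a full cyclic AMP response element, 88 were higher and 88 lower (median 0.02). With an ETS core, 709 of 2882 were higher and 826 lower (median 0.0013). With an NR4A element, 22 of 112 were higher (19.6%) and 33 lower (29.5%), so more were lower, as with the ETS core. The median of the NR4A element list was 0.04, like that of all tested genes with a listed promoter. For the EGR site 27.7% of 1673 genes were higher and 22.1% lower, for the AP-1 site 25.8% of 662 and 17.7%, for the core of the cyclic AMP response element 27.2% of 3512 and 25.5%, and for the heat shock core 24.7% of 616 and 25.2%. No test was made of these lists.

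There were 11 genes with 2 CArG boxes in that window, of which 7 had a probe set. Beside EGR1 (1.36) and SRF (−0.32), AGPAT1, an enzyme of phospholipid synthesis, differed by 0.51, ING4 by 0.39, CUL4B, a ubiquitin ligase scaffold, by 0.30, ZNF548 by 0.27 and ACTG2, a smooth muscle actin, by −0.08. All but ACTG2 were called in the fit with 1 probe set per gene (limma, adjusted p = 0.548 for ACTG2). In that fit 25.3% of all genes were called higher and 22.0% lower, and no test was made of these 7 genes as a group. EGR1 had the largest rise of the 7, but the EGR1 value was known when the list was drawn up, so this rank is no separate evidence. SRF, with the same count of boxes, was the called gene that was lower, though it was not called over all probe sets (limma, adjusted p = 0.0809).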
